A study of Mus musculus with 6 samples.

Results

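Fcer1g, Tyrobp, Hcst, Fcgr3, Fcgr2b and Syk were followed by symbol in RNA-seq data of mouse haematopoietic stem cells that lacked the lymphotoxin beta receptor (Ltbr). They make up 6 of the 26216 gene names listed, and all 6 were among the 13108 genes tested. The genes were selected on the contrast described here, so their differences are given as a description with no p-value, and calls on them are only counted beside the share of all genes called. LSKs, the lineage-negative, Sca1-positive and c-Kit-positive progenitors of bone marrow, were taken from Ltbr-/- donors (CD45.2) and from Ly5.1 donors with intact Ltbr (CD45.1), mixed, and given to Ly5.1/Ly5.2 hosts after lethal irradiation. At week 6, stem cells labelled LT/ST-HSCs were sorted from the bone marrow as CD150+ CD48- LSKs without Annexin-V, 3 samples per genotype, and both genotypes had thus developed in the same hosts. Cells of 6 chimeras were pooled into the 3 replicates, so the spread is that between pools and includes no measure of single animals. Ltbr-/- donors were 13 weeks old for replicate 1, 10 weeks for replicate 2 and 10 to 13 weeks for replicate 3, and all Ly5.1 donors 7 to 13 weeks. Genotype, the CD45 allele and donor age cannot be told apart fully. The deletion is in the germline, not limited to stem cells.

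Fcer1g (the common Fc receptor gamma chain) and Tyrobp (DAP12) are small transmembrane adaptors whose tails carry an immunoreceptor tyrosine-based activation motif (ITAM). They pair with receptors that have no signalling tail of their own, Fcer1g with the activating Fc receptors Fcgr3, Fcgr1 and Fcgr4 and with the IgE receptor, and Tyrobp with receptors of the TREM, SIRP beta and natural killer families. Src family kinases phosphorylate the motif, which recruits the kinase Syk and leads to phospholipase C gamma and Card9. Hcst (DAP10) is a sister adaptor that carries a motif for phosphoinositide 3-kinase instead, and Fcgr2b is the inhibitory Fc gamma receptor, with an inhibitory motif (ITIM). In bone marrow these genes are best known from macrophages, mast cells, neutrophils and natural killer cells.

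The genes lie in 3 places of the mouse genome (GRCm38.p6). Fcer1g (chr1:171229572-171234349), Fcgr3 (chr1:171051169-171065915) and Fcgr2b (chr1:170960558-170976071) share a stretch of chromosome 1 on the minus strand. Tyrobp (chr7:30413782-30417582, plus strand) and Hcst (chr7:30417712-30419854, minus strand) are neighbours on chromosome 7 whose ends face each other. Syk (chr13:52582610-52648792, plus strand) stands alone.

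Sequence before the annotated RefSeq start is shown for 3 genes, because the window held the letters AGGAAG in each of them. AGGAAG is a form of the site bound by PU.1 and related ETS factors of myeloid cells, and no other form was searched. Of Fcer1g the bases chr1:171234366-171234499 are printed, of Fcgr3 chr1:171059404-171059553 (before the outer of 2 nearby starts in the promoter table, and inside the gene span given above, which begins further out) and of Hcst chr7:30419855-30420004, all on the minus strand, 5′ to 3′, with AGGAAG or its reverse complement in capitals and with annotated exons left out.
Fcer1g: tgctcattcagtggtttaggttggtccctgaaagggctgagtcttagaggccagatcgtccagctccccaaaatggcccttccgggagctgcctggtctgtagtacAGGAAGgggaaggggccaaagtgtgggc
Fcgr3: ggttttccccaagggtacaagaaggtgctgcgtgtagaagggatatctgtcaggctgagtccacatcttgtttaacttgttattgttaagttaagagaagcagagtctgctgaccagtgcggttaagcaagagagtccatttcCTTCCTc
Hcst: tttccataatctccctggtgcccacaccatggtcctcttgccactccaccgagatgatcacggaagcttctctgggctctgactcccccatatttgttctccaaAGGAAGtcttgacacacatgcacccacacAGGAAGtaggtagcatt
Within 250 bases before the start, Fcer1g had 1 match, Fcgr3 1 and Hcst 2, while Fcgr2b and Syk had 0 and Tyrobp is not in the promoter table. On either strand, AGGAAG occurred in 29.5% of all 32851 promoter windows of this length. Whether AGGAAG before the start bears on the differences between the groups given below was not tested. Of the other motifs searched on both strands, the C/EBP form TTGCNNAA occurred once before Fcgr3 and in 9.6% of all windows. The letters of GATA factors (AGATAA, 10.0% of all windows), of RUNX factors (TGTGGT, 14%) and of kappaB (GGGANTTTC, 0.9%) were found before none of the 5 genes. A match is a run of letters and not a shown binding site.

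The labels were checked on Ltbr itself. Its value was 24.2, 26.4 and 23.1 in the Ltbr-/- samples and 564.0, 548.7 and 522.0 in the Ly5.1 samples. The value is the normalised signal deposited per gene, on a linear scale whose log2 is taken for differences. Summed over all genes, it was 12974106 to 13281050 in Ltbr-/- samples and 11689052 to 11983000 in Ly5.1 samples, which is not the sequencing depth. The median of tested genes lay between 351.1 and 354.1 in all 6. Of the genes of the sort, Kit was high (5393.2 ± 192.0 in Ltbr-/-, 5981.0 ± 127.2 in Ly5.1, SD, n = 3) and Cd48 was near the low end of tested genes (25.2 ± 3.3 and 25.1 ± 4.5). The progenitor marker Flt3, which is not in the gate given above, was at 757.5 ± 91.2 and 916.1 ± 12.8. Ly6a (Sca1) was lower in Ltbr-/- (567.1 ± 22.2 against 744.2 ± 20.7, log2 difference −0.39, limma adjusted p = 0.0016), and Slamf1 (CD150) was at 262.6 ± 3.4 against 298.2 ± 29.0 (adjusted p = 0.220).

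Both ITAM adaptors were higher in Ltbr-/- LT/ST-HSCs. Fcer1g was at 1497.4, 1424.0 and 1579.0 in the Ltbr-/- samples and at 921.9, 725.7 and 887.8 in the Ly5.1 samples. The lowest Ltbr-/- sample lay above the highest Ly5.1 sample, and the means were 1500.1 ± 77.5 and 845.1 ± 104.8 (SD, n = 3). The log2 difference was 0.83 with a standard error (SE) of 0.09, or 1.78-fold. Tyrobp was at 2664.7, 2663.5 and 2819.8 in Ltbr-/- and at 1435.7, 1628.7 and 1743.0 in Ly5.1. Its groups did not overlap either, and the log2 difference was 0.77 (SE 0.08), or 1.70-fold. Tyrobp was the most abundant of the 6 genes by value, at the 91.4th percentile of tested genes.

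The third adaptor did not show this separation. Hcst, whose transcription unit ends beside that of Tyrobp, was at 168.4, 160.6 and 210.1 in Ltbr-/- and at 153.7, 139.8 and 167.7 in Ly5.1. The groups overlapped, and only Ltbr-/- replicate 3 stood above all Ly5.1 samples by more than a unit of the scale. The log2 difference was 0.22 (SE 0.10). Within each sample the log2 ratio of Tyrobp to Hcst was 3.98, 4.05 and 3.75 in Ltbr-/- and 3.22, 3.54 and 3.38 in Ly5.1, so that the ratio of the 2 neighbours was higher in every Ltbr-/- sample. Hcst was the least abundant of the 6, at the 32.5th percentile of tested genes.

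Both Fc gamma receptors were higher in Ltbr-/- cells. Fcgr3, the activating low-affinity receptor (CD16), was at 2012.2, 2386.5 and 2186.4 in Ltbr-/- and at 991.8, 972.5 and 1162.2 in Ly5.1. All 3 Ltbr-/- values stood well clear of the Ly5.1 values, and the log2 difference of 1.08 (SE 0.09), or 2.11-fold, ranked 21st highest among the 13108 tested genes. Fcgr2b, the inhibitory receptor (CD32), was at 914.6, 896.5 and 917.3 in Ltbr-/- and at 441.6, 552.4 and 617.5 in Ly5.1. The Ltbr-/- samples were close together (SD 11.3) while the Ly5.1 samples spread more (SD 88.9), and the log2 difference was 0.77 (SE 0.10). The log2 ratio of Fcgr3 to Fcgr2b, activating to inhibitory, was 1.14, 1.41 and 1.25 in Ltbr-/- and 1.17, 0.82 and 0.91 in Ly5.1. The ratio overlapped between the groups through Ly5.1 replicate 1, which had the lowest Fcgr2b value. The log2 ratio of Fcgr3 to its partner Fcer1g was 0.43, 0.74 and 0.47 in Ltbr-/- and 0.11, 0.42 and 0.39 in Ly5.1, with the groups barely apart. The antibody gate named in the study's methods for these cells does not include CD16/32.

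The 2 receptors share sequence. Of the 1272 windows of 76 bases in the longest Fcgr3 transcript (GENCODE M21), 92 occur identically in Fcgr2b, and these are 7.2% of Fcgr3. Fcgr2b had 154 of 3469 windows (4.4%) in common with any other gene, including these 92. How such reads were assigned is not given in the sources used here. The other 4 genes had 0 shared windows.

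Syk, the kinase that binds the phosphorylated motif, was not higher in Ltbr-/- cells. It was at 1530.6, 1372.4 and 1307.4 in Ltbr-/- and at 1748.6, 1485.2 and 1718.1 in Ly5.1. The groups overlapped through Ltbr-/- replicate 1 and Ly5.1 replicate 2. The log2 difference was −0.23 (SE 0.09), which ranked 12407th highest among the 13108 tested genes. The log2 ratio of Fcer1g to Syk was −0.03, 0.05 and 0.27 in Ltbr-/- and −0.92, −1.03 and −0.95 in Ly5.1. Fcer1g thus stood near the level of Syk in Ltbr-/- cells and below it in every Ly5.1 sample, on a scale not divided by length.

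**Figure D1:**
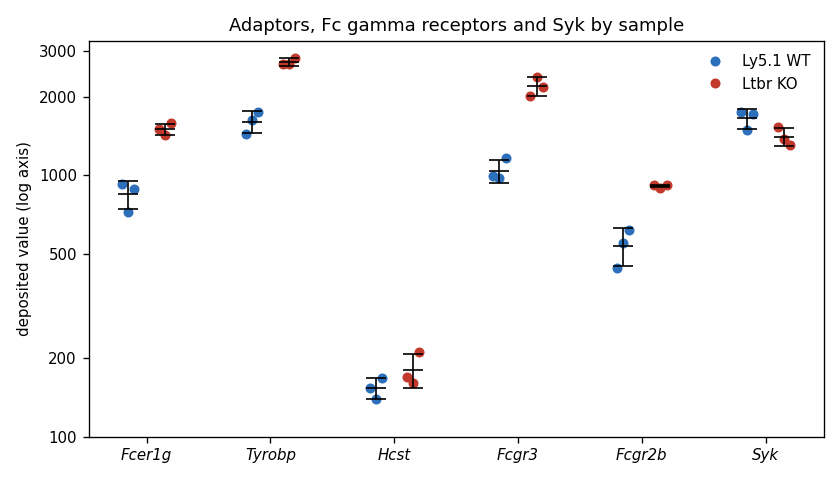
Deposited value (log axis) of the 6 genes in each of 3 Ly5.1 (blue) and 3 Ltbr-/- samples (red), with bars for the mean and SD. Fcer1g, Tyrobp, Fcgr3 and Fcgr2b have no overlap between the groups, with the Ltbr-/- samples of Fcgr3 between 2012.2 and 2386.5 and its Ly5.1 samples between 972.5 and 1162.2, while Hcst and Syk overlap.

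Divided by the length of the longest coding transcript, the order of levels was the same in both groups down to Fcgr3. Per kilobase, Tyrobp was at 2684.2 ± 260.2 in Ly5.1 and 4549.4 ± 150.5 in Ltbr-/- cells (SD, n = 3), followed by Fcer1g at 1237.4 ± 153.5 and 2196.4 ± 113.5 and Fcgr3 at 773.7 ± 77.5 and 1629.6 ± 139.0. Hcst (347.9 ± 31.6) and Syk (307.8 ± 26.9) were not apart beyond their spread in Ly5.1 cells. In Ltbr-/- cells Hcst was at 406.6 ± 60.2 and Syk lower, at 261.7 ± 21.4. Fcgr2b was lowest in Ly5.1 cells, at 151.6 ± 25.1 per kilobase of its 3544-base transcript, but level with Hcst and Syk at 340.4 ± 56.4 when divided by its next transcript of 1578 bases. In Ltbr-/- cells it was at 256.6 ± 3.2 by the first of these transcripts. By the second it was at 576.3 ± 7.2, above these values of Hcst and Syk. The place of Fcgr2b in the order therefore rests on the transcript chosen.

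In the fit across all tested genes (limma, a Benjamini-Hochberg adjusted p under 0.05 together with a 1.5-fold difference or more), 4 of the 6 genes were called higher (Fcer1g, Tyrobp, Fcgr3 and Fcgr2b) and 0 lower. Of all tested genes 356 (2.72%) were called higher and 8 (0.061%) lower. Without the fold threshold, 10.6% of tested genes were higher and 4.18% lower, and in 17% all 3 Ltbr-/- values were above all 3 Ly5.1 values. As the 6 genes were selected on this contrast, nothing follows from their share of calls. In bulk RNA, fewer cells of a type and less RNA per cell cannot be told apart.

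Higher values in Ltbr-/- cells were unevenly spread over transcript length. Of 575 tested genes whose longest coding transcript is under 1000 bases, 89 (15.5%) were called higher. The share was 4.34% of 2214 genes from 1000 to under 2000 bases, 1.20% of 4500 from 2000 to under 4000 bases and 0.376% of 3726 at 4000 bases or more. Leaving out the ribosomal protein genes, it was 8.33% in the shortest class and 0.349% in the longest. The median log2 difference of these classes was 0.17, 0.07, −0.01 and −0.07. Fcer1g (683 bases), Tyrobp (597) and Hcst (442) belong to the shortest class, Fcgr3 (1347) to the next, Fcgr2b (3544) to the third and Syk (5363) to the longest. By its second longest transcript (1578 bases) Fcgr2b would join the class of Fcgr3.

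The members kept different parts of their difference when each sample was corrected for transcript length and GC content, an alternative chosen after the data had been seen. Fcgr3 then had a log2 difference of 0.95 and Fcgr2b of 0.81, and both were still called. The correction used the longest transcript of each gene, and the shorter one of Fcgr2b (1578 bases) was not tried. Fcer1g had 0.56 and Tyrobp 0.47, below the fold threshold of 0.585 on the log2 scale, and were no longer called. Hcst had −0.12 and Syk −0.18. A second reference gave another picture. The 82 ribosomal protein genes had a median log2 difference of 0.79, with 74 called higher. With each sample centred on these genes, which moved the median of all tested genes to −0.88, Fcer1g was at −0.039, Tyrobp at −0.11, Fcgr2b at −0.10, Fcgr3 at 0.20, Hcst at −0.65 and Syk at −1.11. This scaling lowers every gene by the same amount, so which gene stays above zero follows from the starting difference alone, and relative to the median of all tested genes the differences were as before. RNA quality values per sample were not analysed here, and the part of length or of RNA quality in the differences was not tested further.

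**Figure D2:**
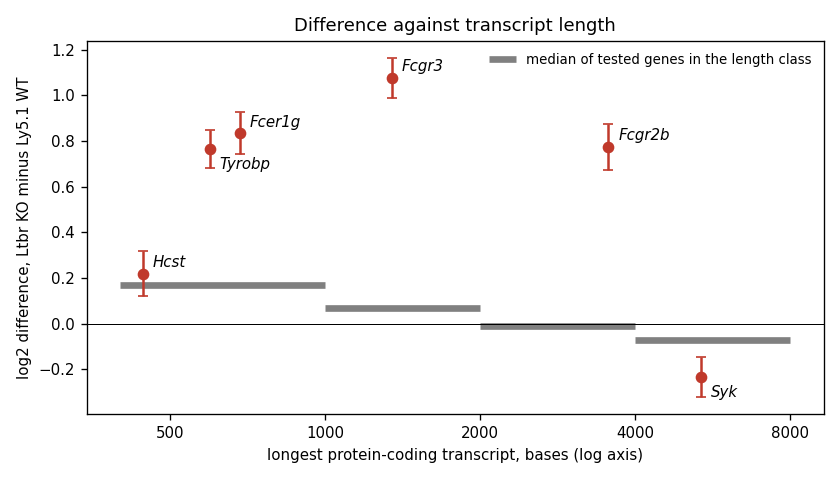
Log2 difference, Ltbr-/- minus Ly5.1 (red points, bars are SE), of the 6 genes against the length of the longest protein-coding transcript (log axis), with grey bars for the median of all tested genes in 4 length classes. The medians fall from 0.17 to −0.07 with length. Hcst lies near the median of its class, and Syk (−0.23) lies below that of its class. Fcgr2b at 3544 bases lies as far above zero as Tyrobp at 597.

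**Figure D3:**
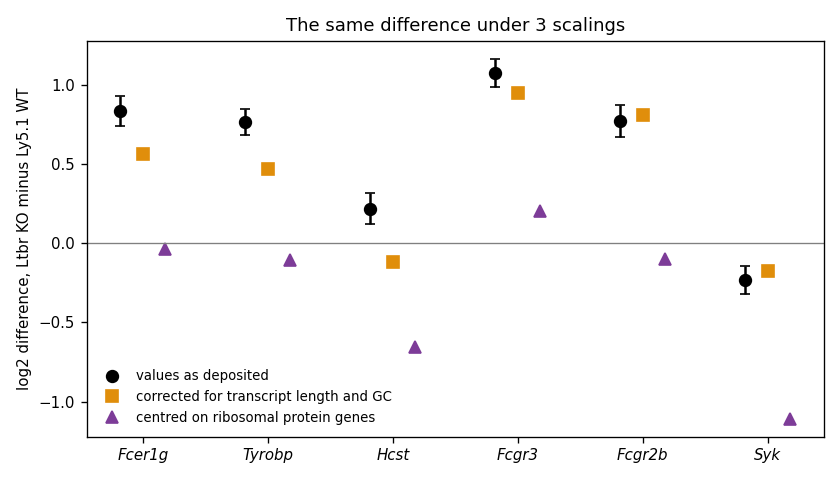
Log2 difference of the 6 genes with the values as deposited (black, bars are SE), corrected for transcript length and GC content (orange) and centred on ribosomal protein genes (purple). The correction lowers Fcer1g to 0.56 and Tyrobp to 0.47 and leaves Fcgr3 at 0.95 and Fcgr2b at 0.81, whereas the centring lowers all 6 genes by the same amount.

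The genes whose pattern over the 6 samples was most like each member were found by the root mean square difference of centred log2 values. For Tyrobp these were Rps20 (0.030), Rps13 (0.031) and LOC101056029 (0.034), the first 2 being ribosomal protein genes. For Fcgr3 they included Tcrg-C1 (0.054), a T cell receptor gamma constant segment, and the ribosomal protein gene Rpl27a (0.069). For Fcer1g they were Eif4ebp1 (0.048), a repressor of translation initiation, Acbd6 (0.066) and the ribosomal gene Rplp2 (0.070). Fcgr2b had Myeov2 (0.035), Renbp (0.056) and H2-Q2 (0.068) nearest. Hcst was nearest to Alas1 (0.051), the haem synthesis enzyme, and Syk to Gcn1l1 (0.024). Among the members the closest pair was Tyrobp and Fcgr2b, at 0.065. The likeness is a description over 6 samples in 2 groups.

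The other genes of the pathway were taken from 9 lists of 147 symbols, of which 141 are in the files and 111 were tested. Of these 111, 3 (2.70%) were called higher and 0 lower in limma, close to the shares of all tested genes, and 30 (27.0%, against 27.1% of all tested genes) had an unadjusted p under 0.05. At an adjusted p under 0.05 with no fold threshold, 13 were higher and 4 lower, and the median log2 difference was −0.02, against −0.01 over all tested genes.

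None of the tested Fc receptor chains outside the 6 genes was called. Of 15 symbols on that list 6 were tested, and 0 had an adjusted or an unadjusted p under 0.05 in limma. Over all tested genes 2.72% were called higher and 27.1% had an unadjusted p under 0.05, so little can be read from 6 genes. All of them but Fcgrt (below) were at low values. Fcer1a, the IgE-binding chain, was at 37.8, 39.3 and 39.3 in Ltbr-/- and at 39.8, 45.8 and 39.8 in Ly5.1, a log2 difference of −0.10 (95% interval −0.22 to 0.01, limma adjusted p = 0.249). Ms4a2, the beta chain of the same receptor, had −0.04 (−0.16 to 0.08, adjusted p = 0.740). Fcgr1 (36.5 ± 1.0 against 37.7 ± 0.9) and Fcgr4 (17.3 ± 0.1 against 17.9 ± 1.6, SD, n = 3), which also use Fcer1g, were at low values, where a regularized log scale, if used, would shrink differences. These 4 genes were picked out after their values were seen. Fcgrt, the neonatal Fc receptor and the most abundant of the list, had a log2 difference of 0.07 (−0.13 to 0.26).

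Among the other ITAM subunits, 1 of 4 tested was called. Cd79a, the alpha chain of the B cell receptor complex, was at 298.5, 273.5 and 304.3 in Ltbr-/- and at 194.0, 211.8 and 167.7 in Ly5.1, with no overlap, a log2 difference of 0.62 (SE 0.10) and an adjusted p of 6.87e-06 in limma. Cd79b, its partner chain, had 0.18 (95% interval −0.01 to 0.38, adjusted p = 0.216). Cd79a was not called without Ly5.1 replicate 3 (0.53), after the length correction (0.49) or with no filter. The difference between the 2 chains was not tested. The B cell genes of the same libraries went the other way in Ighm, the IgM heavy chain, which fell by 1.04 on the log2 scale.

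Of 17 tested receptors that pair with an adaptor, 1 was called. Clec4d (MCL), a C-type lectin that signals through Fcer1g, was at 352.5, 313.7 and 307.6 in Ltbr-/- and at 213.1, 237.1 and 196.2 in Ly5.1. The log2 difference was 0.59 (SE 0.10), with an adjusted p of 1.27e-05 (limma). It was just over the fold threshold and was not called without Ltbr-/- replicate 1 (0.53), without Ly5.1 replicate 3 (0.53) or after the length correction (0.47), nor with no filter or on the log2(value + 8) scale. The median over the 17 was 0.00. Of 3 receptors that carry a partial motif themselves, only Clec7a (Dectin-1) was tested, and it was lower in Ltbr-/- cells by a log2 difference of −0.19 (SE 0.06, adjusted p = 0.036), short of the fold threshold.

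The inhibitory side was mixed. Of 17 tested receptors with an ITIM, 2 were higher and 1 was lower at an adjusted p under 0.05, and 0 were called. Lilrb4 was at 386.9, 407.5 and 407.8 in Ltbr-/- and at 269.5, 330.8 and 300.3 in Ly5.1, a log2 difference of 0.42 (SE 0.10, adjusted p = 0.00153). Lilrb3 had 0.37 (SE 0.10, adjusted p = 0.010), but 0.25 without Ly5.1 replicate 1 (limma adjusted p = 0.126). Clec12a, named after its value was seen, was lower with −0.34 (SE 0.10, adjusted p = 0.0141). Pecam1, the most abundant of them, had 0.15 (95% interval −0.09 to 0.38).

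Among 14 phosphatases and inhibitory adaptors, all tested, 1 was called and 3 were higher at an adjusted p under 0.05. Sla2, an adaptor that dampens antigen receptor signalling, was at 697.9, 681.2 and 745.1 in Ltbr-/- and at 418.4, 432.9 and 490.9 in Ly5.1. Its log2 difference of 0.66 (SE 0.09, limma adjusted p = 8.49e-07) was called under all alternatives but the fold of at least 2 and the ribosomal scaling. Dok1, another inhibitory adaptor, had 0.37 (SE 0.10, adjusted p = 0.0109), but 0.27 without Ly5.1 replicate 2 (limma adjusted p = 0.116). Ptpn6 (SHP-1), the phosphatase recruited by ITIMs and the most abundant of the list, had −0.15 (95% interval −0.30 to −0.01, adjusted p = 0.161).

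Src and Tec family kinases, which phosphorylate the motif and act beside Syk, had 1 gene higher and 1 lower of 11 tested, and 0 called. Txk, a Tec family kinase, had a log2 difference of 0.45 (SE 0.10, adjusted p = 0.000758). Btk, the most abundant, had 0.17 (95% interval 0.01 to 0.32, adjusted p = 0.168).

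Downstream of Syk, the adaptor list had 3 genes higher and 1 lower of 17 tested, and 0 called. Card9, which links Syk-coupled receptors to NF-kappaB, was at 909.0, 1028.5 and 815.8 in Ltbr-/- and at 693.4, 574.9 and 729.5 in Ly5.1, a log2 difference of 0.46 (SE 0.10, adjusted p = 0.000754). Grap2 had 0.30 (SE 0.08, adjusted p = 0.00702), and Lcp2 (SLP-76), the most abundant, 0.04 (95% interval −0.13 to 0.21). Of 24 tested downstream enzymes, 2 were higher, 0 lower and 0 called. These were Rasgrp4, a Ras activator of mast cells, with 0.35 (SE 0.10, adjusted p = 0.00899) and Pik3cb, a phosphoinositide 3-kinase subunit, with 0.34 (SE 0.10, adjusted p = 0.0132). Rasgrp4 had 0.24 without Ltbr-/- replicate 2 (limma adjusted p = 0.135). Pik3cb had 0.26 without Ly5.1 replicate 1 (limma adjusted p = 0.105). Plcg2, the phospholipase of the pathway and the most abundant, had −0.07 (95% interval −0.22 to 0.08).

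**Figure D4:**
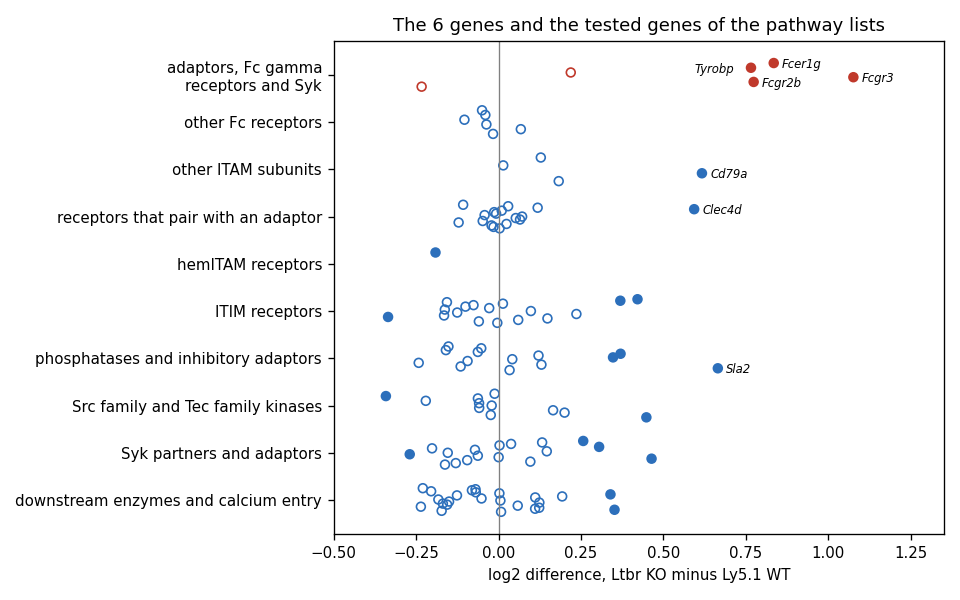
Log2 difference, Ltbr-/- minus Ly5.1, of the 6 genes (red) and of the 111 tested genes of 9 pathway lists (blue). Filled points have an adjusted p under 0.05 in limma and names mark those that also pass the fold of 1.5. Fcer1g, Tyrobp, Fcgr3 and Fcgr2b lie at 0.77 to 1.08, the values they were selected on, and of the listed genes only Cd79a, Clec4d and Sla2 are called.

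On chromosome 1, none of the tested genes next to the members was called. The 3 protein-coding genes on each side of each member gave 25 neighbours, of which 15 were tested. Of the 13 beside Fcer1g, Fcgr3 and Fcgr2b, 7 were tested, and 0 had an adjusted or an unadjusted p under 0.05 in limma, with log2 differences from −0.06 to 0.16. The shares of all tested genes were 2.72% called higher and 27.1% with an unadjusted p under 0.05, so little can be read from 7 genes. Among these, Nr1i3, Fcgr4 and Fcrla were near the lowest tested value of 13.9. Fcer1g, Fcgr3 and Fcgr2b lie 32.8 to 33.1 Mb from Ptprc, the gene of the CD45 allele by which the donors differ, and how far the Ly5.1 donor DNA reaches on this chromosome is not given in the sources used here. Of the neighbours of Syk, Nfil3, a basic leucine zipper transcription factor 318.4 kb away, was called higher (log2 difference 0.96, SE 0.09, adjusted p = 1.62e-10, limma). Nfil3 was the only neighbour of the 15 that was called. Short of the fold threshold, Syne4 near Tyrobp and Hcst was higher with no overlap (0.41, SE 0.10, adjusted p = 0.00401, limma). So was Auh near Syk, with overlap (0.29, SE 0.10, adjusted p = 0.0464). Across the 15 the median was 0.08.

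Markers of other cell types moved with the groups. Mast cell and basophil markers summed to 7840 to 8396 in Ltbr-/- samples and 4373 to 5000 in Ly5.1 samples, and 1 of 8 tested genes of that list was called higher. This was Cma1, a mast cell chymase, which made up most of the sum, at 5470.2 ± 285.2 against 2195.1 ± 225.0. Cpa3, a mast cell carboxypeptidase, was also higher (log2 difference 0.56, limma adjusted p = 1.44e-05, under the fold threshold), while Prss34, a basophil protease, was lower (−0.41, adjusted p = 0.0033) and Mcpt8 had −0.22 (adjusted p = 0.198). In contrast, Fcer1a, Ms4a2 and Il1rl1 (34.4 ± 1.0 against 34.4 ± 2.1), which define mature mast cells, were low in both, and Tpsb2 and Mrgprb1 were listed at the same value, 1.0, in every sample. Of 10 tested monocyte and macrophage markers 1 was called higher, Emr1 (F4/80), at 1241.5 ± 141.4 against 694.7 ± 39.2 (SD, n = 3). At an adjusted p under 0.05 in limma, 2 genes of that list were higher, Emr1 and Cd68 (0.28, adjusted p = 0.0353). Lower were 2, Lyz2 (−0.42, adjusted p = 8.29e-05) and Itgam (−0.30, adjusted p = 0.0259). The sum of that list was lower in Ltbr-/-, at 6784 to 7630 against 7662 to 8196, with Lyz2 its largest part (3587.1 ± 231.8 against 4781.7 ± 274.6). C1qa (17.0 ± 0.3 against 17.2 ± 0.5) and Cd14 (18.1 ± 0.7 against 18.3 ± 0.5) were near the low end of the scale. Granulocyte markers summed to 45654 to 46502 in Ltbr-/- and 59712 to 64623 in Ly5.1, and 10 of 12 were lower at an adjusted p under 0.05, among them Mpo (−0.39) and S100a8 (−0.41). Natural killer cell markers overlapped between the groups (1154 to 1273 against 1213 to 1333), and Ncr1, which signals through Fcer1g, was at 26.8 ± 0.1 against 27.2 ± 1.5. Dendritic cell markers summed to 3595 to 4038 against 1862 to 2421, with Bst2 called higher. Bst2 made up most of that sum (3610.3 ± 224.0 against 1985.2 ± 293.8), and the other tested genes of the list were not called (Siglech 0.01, Itgax 0.09 and Zbtb46 −0.11 as log2 differences). Of the remaining lists, the sums of erythroid (3742 to 4080 against 2829 to 3071), platelet (12206 to 12934 against 9729 to 10997) and T cell markers (1511 to 1745 against 1382 to 1403) were higher in Ltbr-/- samples. The sums of B cell (1401 to 1535 against 2255 to 2419), stem cell (13472 to 14063 against 15506 to 15700) and multipotent progenitor markers (3272 to 3615 against 4073 to 4277) were lower. The part of other cells in the values of the 6 genes was not tested.

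**Figure D5:**
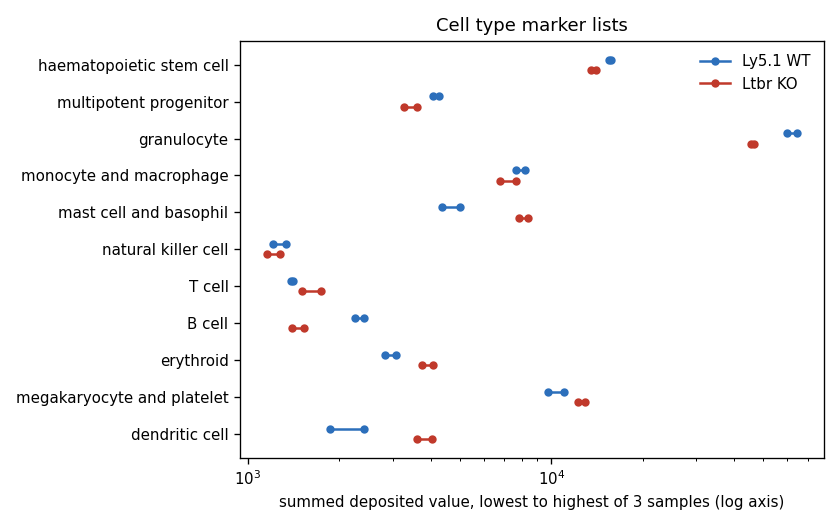
Summed deposited value (log axis) of 11 cell type marker lists, each line running from the lowest to the highest of 3 samples in Ly5.1 (blue) and Ltbr-/- (red). Mast cell and dendritic cell sums, mostly Cma1 and Bst2, are higher in Ltbr-/- samples. Granulocyte, B cell, monocyte (with Lyz2 the largest part) and stem cell sums are lower, and only the natural killer cell sums overlap.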

How the data were processed

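RNA was sequenced (TruSeq stranded mRNA libraries) from 3 Ltbr-/- and 3 Ly5.1 samples. The authors assembled reads with SeqMan NGen and quantified them with ArrayStar, and the deposited value is a normalised signal that is never negative. The study's methods name regularized logarithm values, and the signal was taken to be 2 to that power, which was not stated in the files. Such a scale would shrink differences of low genes. Counts and depth are not known, so no counting interval is given. The submitters' processing notes name GRCm38 and mm10.

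Of 26595 entries per sample, repeated names were reduced to their highest-mean entry, leaving 26216 names, and the upper 50% by mean were tested (13108). The lowest tested value was 13.9, so log2 was taken with no pseudocount and fitted in limma 3.58.1 (R 4.3.3; lmFit, then eBayes with an intensity trend), adjusted over all tested genes. The fit was tested on simulated data. Marker sums, ratios and figures used Python 3.11.15. The 6 genes, the lists and the tests were chosen with earlier results of these data known. Named genes were the 6, Ltbr, called list genes and neighbours, the 2 largest differences at an adjusted p under 0.05 and the most abundant gene of each list, and the 3 nearest patterns; any others were picked with their values in view. A few genes that this rule names are not reported here. The settings varied were a replicate block, 2 other filters, no trend, other folds, 3 scalings, log2(value + 8), each sample left out, and a loess correction (span 0.3) for length and GC content, for which 84% of tested genes had a transcript. The labels name no batch, and p-values measure only the spread between these samples. Positions and promoters came from RefSeq (GRCm38.p6), transcripts from GENCODE M21.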

Additional observations from a re-analysis of the deposited data

How the results depend on the processing

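As the 6 genes were selected on this contrast, calls on them under other settings are a description. The 4 calls were also made with each sample left out, with quantile normalization, without the trend, in the upper 25% of genes and with no fold threshold. Without a filter Fcgr2b was not called, and with a fold of at least 2 only Fcgr3 was. After the length and GC correction only Fcgr3 and Fcgr2b were called. With centring on ribosomal protein genes Fcer1g, Tyrobp, Fcgr3 and Fcgr2b were not called, while Hcst and Syk were, both lower. Leaving out 1 sample gave log2 differences of 0.73 to 0.90 for Fcer1g, 0.69 to 0.83 for Tyrobp, 0.10 to 0.29 for Hcst, 1.01 to 1.16 for Fcgr3, 0.64 to 0.88 for Fcgr2b and −0.31 to −0.18 for Syk. It gave 1 to 3 pathway genes called higher, with 1 without Ly5.1 replicate 3, where Cd79a (0.53) and Clec4d (0.53) fell short of the fold.

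The pathway genes called higher (3) were 1 with no filter, 1 in the upper 25%, 13 with no fold threshold, 0 at a fold of at least 2, 0 with centring on ribosomal protein genes and 1 after correcting for length and GC. Those called lower (0) were 4 with no fold threshold and 99 with the ribosomal centring. Called neighbours (1) were 3, 0 and 12 with no fold threshold, a fold of at least 2 and the ribosomal centring. All genes called, 356 higher and 8 lower, were 1388 and 548 with no fold threshold, 37 and 5 at a fold of at least 2, 0 and 11998 with the ribosomal centring, 261 and 28 after quantile normalization, 165 and 13 after the length correction, and 339 and 4 in the upper 25%.

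The ribosomal centring, which by construction subtracts the rise of those genes, turned the sign of Fcer1g (−0.039), Tyrobp (−0.11), Fcgr2b (−0.10), Fcgrt (−0.81), Cd79a (−0.26), Cd79b (−0.69), Clec4d (−0.28), Pecam1 (−0.73), Sla2 (−0.21), Btk (−0.71) and Lcp2 (−0.84), as it did for Hcst (−0.65), Lilrb4 (−0.45), Lilrb3 (−0.50), Dok1 (−0.50), Txk (−0.43), Card9 (−0.41), Grap2 (−0.57), Rasgrp4 (−0.52) and Pik3cb (−0.53), and moved Fcgr3 to 0.20 and Syk to −1.11. Small differences of genes that were not called also turned, with Lcp2 at −0.025 after quantile normalization, Fcgrt at −0.019 after the length correction, and with 1 sample left out Lcp2 between −0.033 and 0.13 and Pecam1 between −0.026 and 0.29, the negative values of both without Ly5.1 replicate 3. The length correction moved Fcer1g to 0.56, Tyrobp to 0.47 and Hcst to −0.12.

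Samples of the same replicate number did not clearly deviate together (correlations of 0.031, −0.005 and 0.090). Whether such samples came from the same chimeras cannot be told from this. The replicate block left 356 genes called higher and 8 lower, 3 pathway genes, 1 neighbour and the 4 members. Sequencing depth is unknown, which limits what can be said of genes at low values such as Fcgr4.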
